A study of Mus musculus with 6 samples.

Results

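The Hox genes are homeobox transcription factors that lie in 4 clusters, Hoxa, Hoxb, Hoxc and Hoxd, and carry a number for their paralog group. Genes of low number are used toward the head end of the embryo and genes of high number toward the tail end and the far part of the limb, so the set that a cell transcribes serves as a record of position along the body. Many adult connective tissue and muscle cells keep part of the pattern they acquired in the embryo. Hox proteins bind DNA together with partner homeodomain proteins of the Pbx, Meis and Pknox families, and the clusters are held silent or active by Polycomb and trithorax complexes.

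The members were taken as every platform gene symbol made of Hox, a cluster letter from a to d and a number. There were 38 such genes with a probe, out of 19057 genes with a probe in all, and they had 57 probes. Each gene was represented by its brightest probe by the mean of the 6 arrays. In the RefSeq models of build GRCm38.p6, the Hoxa members lie at chr6:52162417-52260880, the Hoxb genes at chr11:96194316-96368254, the Hoxc genes at chr15:102921131-103036856 and the Hoxd genes at chr2:74668225-74765142.

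RNA came from primary myoblasts of Rev-/- mice, which carry a global null allele of Rev-erbα (gene Nr1d1), and of WT mice, with 3 arrays per label. The labels give C57BL/6 males of 6 weeks for both, and cells grown on collagen in F-10 medium (20% FBS, bFGF at 5 ng/ml), while the methods give hind limb muscle of younger mice, pre-plating against fibroblasts and passaging. The null allele is described as global, so it is not confined to muscle cells. Illumina Mouse WG-6 v2 bead arrays measured 1 RNA sample each, and the methods describe the samples as independent without naming animals.

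Nr1d1 itself did not separate the labels, at a log2 intensity of 7.01, 6.51 and 7.14 on arrays Rev-/- 1, 2 and 3, against 6.59, 6.54 and 7.21 on arrays WT 1, 2 and 3. Where its probe lies relative to the deleted part was not analysed here, so this value checks nothing about the labels. Of 8 myogenic progenitor markers, 6 passed the dim-probe limit on all arrays, among them Myod1, Myog and Des, and Pax7 and Myf5 passed it on none. All 6 markers of differentiated muscle and 3 of 3 measured red cell markers passed it on all arrays. Among the muscle markers, mean log2 intensity on Rev-/- and WT arrays ran from 9.96 and 9.88 (Myh1) to 14.6 and 14.55 (Myh8). The red cell markers ran from 10.17 and 9.46 (Alas2) to 14.47 and 14.41 (Hba-a1). The 6 progenitor markers above the limit ran from 7.87 and 7.99 (Myod1) to 12.69 and 12.71 (Des). Probes differ, so levels are not compared between genes. Whether the RNA came from cultured myoblasts alone was not tested. Array Rev-/- 1 correlated with the rest at 0.983 on average, and the others at 0.991 to 0.992. The 4 osteoblast and 7 neutrophil markers above the limit all had their highest value on that array, and values without it are given for a part of the Hox genes. Markers of other cells were present on all 6 arrays too, 6 of 6 of fibroblasts, 5 of 5 of endothelial cells, 5 of 5 of macrophages and 2 of 2 of Schwann cells, and the cell of origin of a Hox signal was not tested. In RNA from a whole sample, fewer cells of a type and less RNA per cell cannot be told apart.

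The position code was first read as presence or absence. A probe was taken as present on an array where its quantile-normalized log2 intensity passed 6.72 (105 on the linear scale), the 95th percentile of the background of dim probes, and a gene where it did so on at least 3 arrays. By this rule 21 of the 38 Hox genes were present, 18 on all 6 arrays and 3 on 3 to 5 arrays, against 61.1% of all genes with a probe. Another 8 passed on 1 or 2 arrays and 9 on none. With the 99th percentile, at 6.76, required on all 6 arrays, 17 of the 38 Hox genes passed, against 49.2% of all genes. A bead array gives only a bound for the genes below the limit, and no probe's level is set against that of another here.

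**Figure D1:**
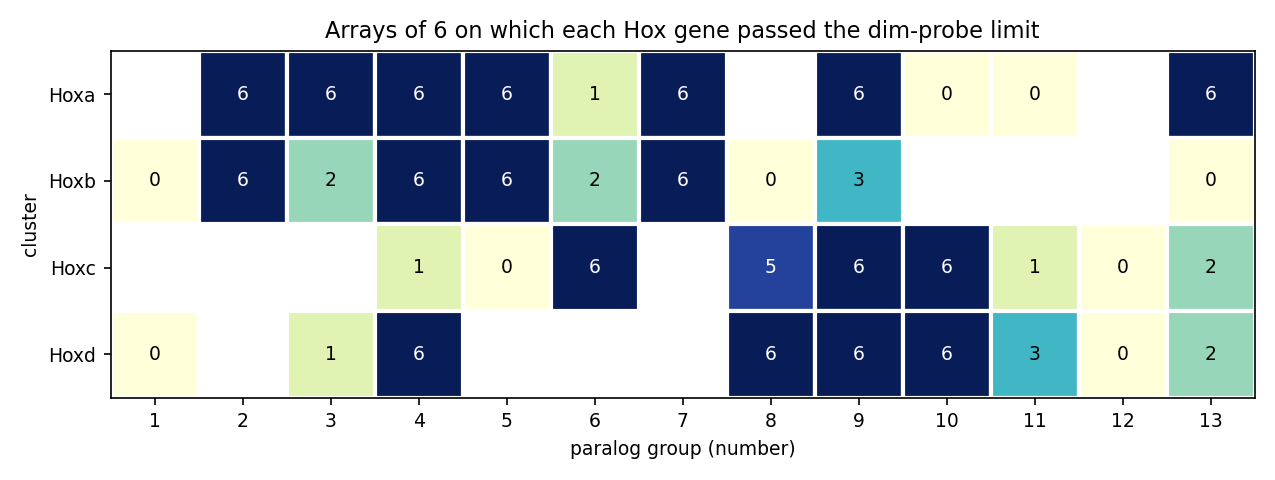
Number of arrays, of 6, on which the brightest probe of each Hox gene passed the dim-probe limit, by cluster (rows) and paralog group (columns). Blank squares hold no member. Dark squares fill groups 2 to 5 of Hoxa and 8 to 10 of Hoxd, and the right edge is mostly pale, with Hoxa13 at 6 arrays.

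By cluster, 7 of 10 Hoxa genes, 5 of 10 Hoxb genes, 4 of 9 Hoxc genes and 5 of 9 Hoxd genes were present. By paralog group, the present genes lay mainly in the middle of the clusters, with 3 of 7 genes in groups 1 to 3, 10 of 15 in groups 4 to 8, 6 of 7 in groups 9 to 10 and 2 of 9 in groups 11 to 13. In group 9, all 4 genes were present, Hoxa9, Hoxc9 and Hoxd9 on every array and Hoxb9 on 3. Neither measured gene of group 1 and neither gene of group 12 was present, whereas both genes of group 2 (Hoxa2 and Hoxb2) and both of group 7 (Hoxa7 and Hoxb7) were, on all 6 arrays.

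Along the chromosome, present genes stood in runs in the Hoxa, Hoxc and Hoxd clusters. In Hoxc, the 4 present genes Hoxc6, Hoxc8, Hoxc9 and Hoxc10 stood in a row, with Hoxc4 and Hoxc5 on the low side and Hoxc11, Hoxc12 and Hoxc13 on the high side not present. In Hoxd, Hoxd8 to Hoxd11 stood in a row, and Hoxd4, the member of next lower number, was present too. Hoxd3, whose RefSeq model overlaps that of Hoxd4, passed on 1 array. In Hoxa, Hoxa2 to Hoxa5, Hoxa7 and Hoxa9 were present around Hoxa6, which passed on array Rev-/- 1 alone. Hoxa13 passed on all 6 arrays although Hoxa10 and Hoxa11, the genes between it and Hoxa9, passed on none. In Hoxb, present and absent genes were mixed, with Hoxb2, Hoxb4, Hoxb5, Hoxb7 and Hoxb9 present and Hoxb1, Hoxb3, Hoxb6, Hoxb8 and Hoxb13 not.

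RefSeq models overlap for Hoxa3 with Hoxa4, Hoxa5 and Hoxa6, for Hoxb3 with Hoxb4, for Hoxd3 with Hoxd4 and for Hoxd10 with Hoxd11, so the gene a probe there reports rests on the platform annotation. Of the non-coding transcripts that RefSeq places inside the clusters, Gm53 in Hoxb and Hoxd3os1 in Hoxd had a probe, and neither passed the limit on any array.

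The genes that passed on 1 or 2 arrays lay between 6.51 and 6.8 on all arrays. Hoxa6 and Hoxd3 passed on Rev-/- 1, Hoxc4 on Rev-/- 2, and Hoxd13 on Rev-/- 1 and Rev-/- 3. Hoxc11 passed on WT 3, Hoxb3 on Rev-/- 2 and WT 2, Hoxb6 on Rev-/- 1 and WT 1, and Hoxc13 on Rev-/- 1 and WT 2. The 9 genes that passed on none were Hoxa10, Hoxa11, Hoxb1, Hoxb8, Hoxb13, Hoxc5, Hoxc12, Hoxd1 and Hoxd12, with values between 6.47 and 6.71.

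For 4 genes that the array and label comparisons turn on, the 250 bases before the RefSeq start are shown from the RefSeq promoter table (build GRCm38.p6). Hoxb4 had the smallest p between the labels, and Hoxd4, Hoxd8 and Hoxd9 were high on the same arrays. The letters AGGTCA, the half-site of the response element that Rev-erbα and the ROR receptors bind, were searched on both strands and are in capitals where found, as AGGTCA or as its reverse complement TGACCT. The 4 stretches lie on the plus strand at chr11:96318017-96318266 for Hoxb4, chr2:74721728-74721977 for Hoxd4, chr2:74704365-74704614 for Hoxd8 and chr2:74697513-74697762 for Hoxd9.
Hoxb4: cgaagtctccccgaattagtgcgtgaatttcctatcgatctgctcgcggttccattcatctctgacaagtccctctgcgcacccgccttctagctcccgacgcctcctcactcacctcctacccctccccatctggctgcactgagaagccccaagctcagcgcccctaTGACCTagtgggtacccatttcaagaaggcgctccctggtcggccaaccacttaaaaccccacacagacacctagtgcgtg
Hoxd4: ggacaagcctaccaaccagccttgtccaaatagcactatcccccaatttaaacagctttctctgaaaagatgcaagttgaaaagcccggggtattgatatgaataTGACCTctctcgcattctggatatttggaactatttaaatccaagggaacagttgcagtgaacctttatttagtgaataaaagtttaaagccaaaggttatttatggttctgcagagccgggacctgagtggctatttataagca
Hoxd8: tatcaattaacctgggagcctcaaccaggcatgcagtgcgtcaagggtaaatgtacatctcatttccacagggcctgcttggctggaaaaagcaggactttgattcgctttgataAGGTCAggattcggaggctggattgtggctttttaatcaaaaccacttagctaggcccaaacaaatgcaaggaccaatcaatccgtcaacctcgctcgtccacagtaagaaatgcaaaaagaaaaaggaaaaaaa
Hoxd9: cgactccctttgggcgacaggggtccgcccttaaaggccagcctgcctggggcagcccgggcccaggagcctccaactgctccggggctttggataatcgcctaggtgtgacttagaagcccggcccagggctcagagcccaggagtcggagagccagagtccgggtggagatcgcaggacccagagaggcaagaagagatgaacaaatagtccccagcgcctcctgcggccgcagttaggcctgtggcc

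Hoxb4, Hoxd4 and Hoxd8 each held the letters once, and Hoxd9 did not hold them in this window. Among the 24 Hox promoters in the table, which belong to 22 genes, 6 held them, against 14.0% of all 32851 promoters of the same length. A match is a description of these letters and not a binding site.

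The 21 present genes were then compared between the labels. A call required a limma adjusted p no higher than 0.05 with a difference of 1.5-fold or more, over all probes. No Hox gene was called, and of all 11636 genes 0% were called higher and 0% lower. No Hox gene reached an unadjusted p of 0.05, which 1.24% of all genes reached higher and 1.94% lower. The log2 difference, arrays labelled Rev-/- minus arrays labelled WT, ran between -0.18 for Hoxb4 and 0.09 for Hoxa2, with 11 genes above 0 and 10 below. For 12 of the 21 genes the sign turned in at least 1 alternative. Its median was 0.0011, beside -0.005 over all genes tested. The 95% intervals of all 21 genes lay inside a 1.5-fold change of intensity (0.58 on the log2 scale). The lowest bound was -0.47 for Hoxd4 and the highest 0.37 for Hoxa7. Intensities include a background floor, so for genes near the limit these intervals do not bound the fold change of the RNA. A difference inside these intervals cannot be told from none at 3 arrays per label.

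**Figure D2:**
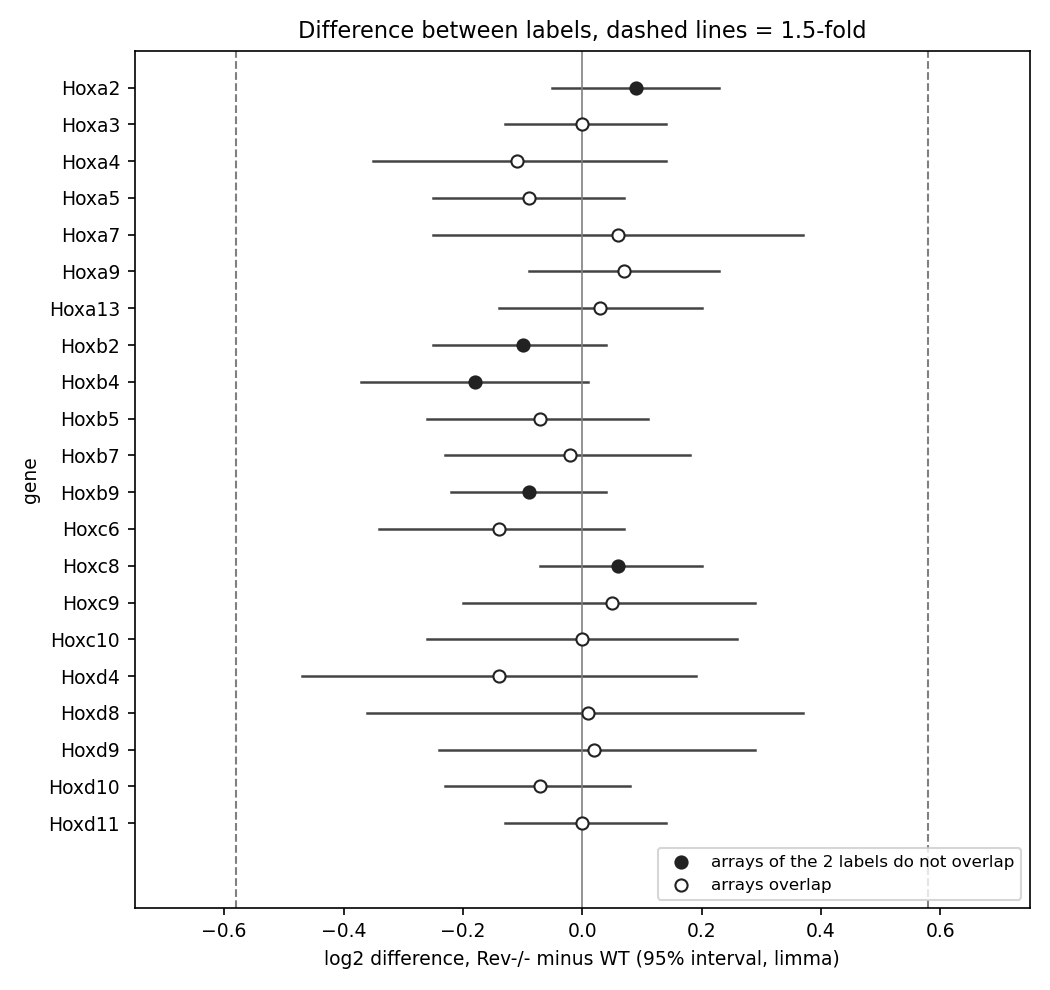
Log2 difference between the labels, Rev-/- minus WT, for the 21 Hox genes above the dim-probe limit, with 95% intervals from limma (n = 3 arrays per label). Every interval stays inside the dashed lines at a 1.5-fold change of intensity, which includes a background floor and so does not bound the fold change of the RNA. The filled points mark the 5 genes whose arrays do not overlap between labels.

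In 5 of the 21 genes all arrays of one label lay beyond all arrays of the other, 2 higher (Hoxa2 and Hoxc8) and 3 lower (Hoxb2, Hoxb4 and Hoxb9) on the arrays labelled Rev-/-. Over all genes tested, 3.54% were so placed higher and 4.55% lower. The gaps were small, between 0.006 on the log2 scale for Hoxb4 and 0.037 for Hoxb9. Hoxb9 passed the limit on the WT arrays alone, so the filter favoured its place among the lower genes. Without array Rev-/- 1 the count was 9 of 20, beside 18.4% of all genes. With 3 arrays per label the exact permutation test cannot go below p = 0.1, the value each of these 5 genes had. With array medians aligned or with no normalization the count was again 5, but of other members and all lower (Hoxa4, Hoxb4, Hoxb5, Hoxb9 and Hoxc6), beside 23.2% and 27.3% of all genes in either direction.

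**Figure D3:**
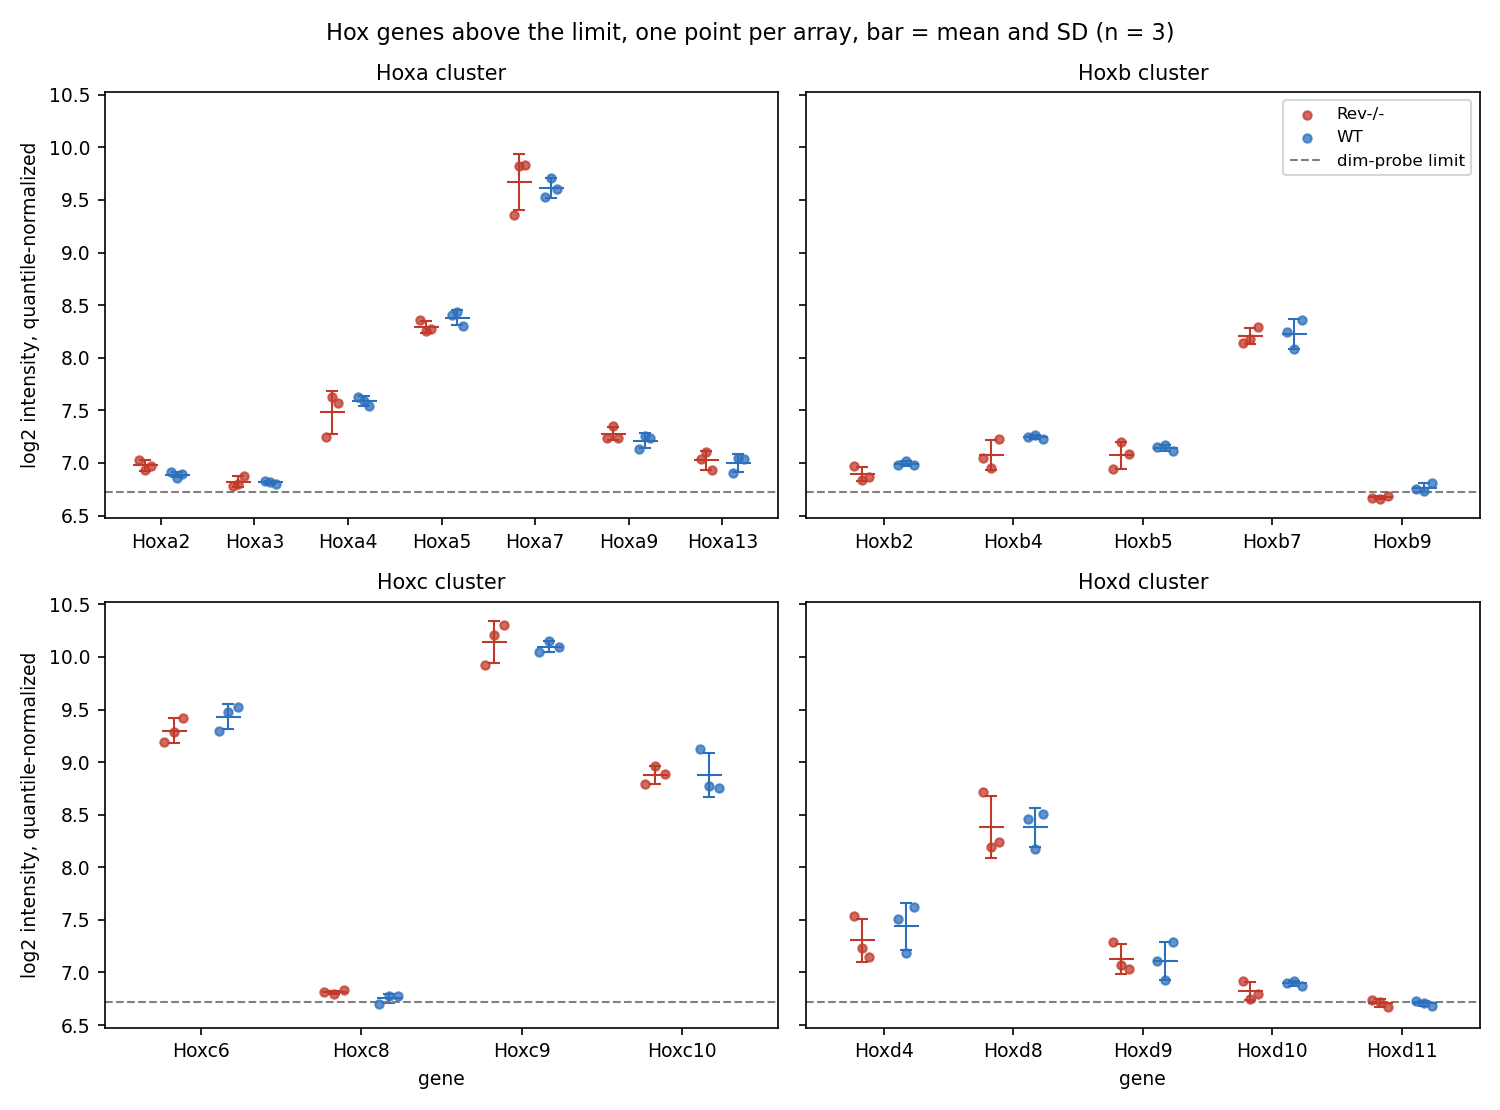
Quantile-normalized log2 intensity of the 21 Hox genes above the dim-probe limit by cluster, 1 point per array, Rev-/- in red left of WT in blue, with mean and SD (n = 3) and the limit as a dashed line. The points of the labels intermingle for most genes, and Hoxb9, Hoxc8 and Hoxd11 sit at the limit. Each gene has its own probe, so heights are not comparable between genes.

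In the Hoxa cluster, Hoxa2 and Hoxa3 are the genes of the head end. Hoxa2, which sets hindbrain and second branchial arch identity, had 7.03, 6.93 and 6.97 on the arrays labelled Rev-/-, against 6.91, 6.86 and 6.89 on the arrays labelled WT. The labels did not overlap, and limma gave a difference of 0.09 (SE 0.059, unadjusted p = 0.166, adjusted p = 0.997). Its other probe, also present on all 6 arrays, ran the other way, with 6.87, 6.81 and 6.76 on Rev-/- arrays against 6.97, 6.86 and 6.9 on WT arrays and a difference of -0.10, and the mean of both probes differed by -0.0032. Hoxa3, needed for the thymus and parathyroid, had 6.78, 6.8 and 6.88 on Rev-/- arrays, against 6.83, 6.82 and 6.8 on WT arrays. All 6 values lay within 0.1 of each other, and of its other 3 probes 1 passed the limit, on 1 array.

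Hoxa4 and Hoxa5 pattern the neck and upper thorax, and Hoxa5 also acts in lung development. Hoxa4 had 7.25, 7.63 and 7.57 on Rev-/- arrays, against 7.63, 7.59 and 7.54 on WT arrays. Array Rev-/- 1 was its low one, and the other 5 arrays overlapped, so that the difference of -0.11 was 0.012 without that array. Hoxa5 had 8.36, 8.25 and 8.27 on Rev-/- arrays, against 8.41, 8.43 and 8.3 on WT arrays. Rev-/- 2 and Rev-/- 3 were its lowest arrays, but Rev-/- 1 exceeded WT 3 and the labels overlapped (difference -0.09, SE 0.067, unadjusted p = 0.221). Without Rev-/- 1 they did not overlap, at a difference of -0.12.

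Hoxa7, a trunk gene, had 9.36, 9.82 and 9.83 on Rev-/- arrays, against 9.53, 9.71 and 9.6 on WT arrays. Its lowest value was on Rev-/- 1 and its highest ones on the other 2 Rev-/- arrays, and the difference of 0.06 became 0.22 without Rev-/- 1, where the labels no longer overlapped, and -0.019 without Rev-/- 3. It was -0.17 with array medians aligned. Hoxa9, which acts in blood stem cells and in leukaemia, had 7.24, 7.35 and 7.24 on Rev-/- arrays, against 7.13, 7.26 and 7.24 on WT arrays, with overlap. A second Hoxa9 probe was present on all 6 arrays, with a difference of 0.11 beside 0.07 for the first, and its last probe was on none. As 1 array was left out, the brightest probe was chosen anew, and without Rev-/- 3 or WT 2 the second probe took the place of the first. The differences of 0.24 without Rev-/- 3 and 0.021 without WT 2 are therefore those of the second probe. With the first probe the difference ran between 0.024 without WT 1 and 0.083 without Rev-/- 1.

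Hoxa13, which patterns the digits and the genital tubercle, had 7.04, 7.1 and 6.93 on Rev-/- arrays, against 6.9, 7.05 and 7.04 on WT arrays. The labels overlapped over nearly their whole range. Its presence rested on 2 of 3 probes, since 1 other passed on 5 arrays at values of 6.77 or less and the last on none. The other far-limb genes were at the limit or under it, with Hoxd11 on 3 arrays, Hoxd13 on 2 and Hoxa11 on none.

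All 5 present Hoxb genes had a difference below 0, where 6076 of 11636 genes tested had one below 0. For Hoxb9, present through its WT arrays alone, the filter itself set this sign. In Hoxb2 and Hoxb4 the labels did not overlap, beside 4.55% of all genes so placed lower. Hoxb7 turned above 0 with array weights, without Rev-/- 1 and without WT 3. The other 4 stayed below 0 in every alternative that tested them, some of which could not change the difference. Hoxb2, a hindbrain gene, had 6.97, 6.84 and 6.87 on Rev-/- arrays, against 6.98, 7.02 and 6.98 on WT arrays. Array Rev-/- 1 nearly touched the WT values, and the difference was -0.10 (SE 0.062, unadjusted p = 0.138). Hoxb4, known for expanding blood stem cells, had 7.05, 6.95 and 7.23 on Rev-/- arrays, against 7.25, 7.27 and 7.23 on WT arrays. Its mean was 7.07 ± 0.14 on Rev-/- arrays and 7.25 ± 0.019 on WT arrays (SD, n = 3 each), and Rev-/- 3 sat 0.006 under the lowest WT array. That gave the smallest p of any Hox gene (difference -0.18, SE 0.081, unadjusted p = 0.064, limma adjusted p = 0.997).

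Hoxb5, which acts in the shoulder region and gut neural crest, had 6.94, 7.2 and 7.08 on Rev-/- arrays, against 7.15, 7.17 and 7.11 on WT arrays. Rev-/- 2 held the highest value and Rev-/- 1 the lowest, and without Rev-/- 1 the difference of -0.07 shrank to -0.0036. Hoxb7, a trunk gene, had 8.14, 8.18 and 8.29 on Rev-/- arrays, against 8.24, 8.08 and 8.36 on WT arrays. Both extremes of Hoxb7 were on WT arrays, and its second probe, present on all 6 arrays, also gave a difference below 0 (-0.06). Hoxb9, a thoracic gene, had 6.67, 6.66 and 6.69 on Rev-/- arrays, against 6.75, 6.73 and 6.81 on WT arrays. Only the WT arrays passed the limit, so Hoxb9 entered the comparison through the label in which it was brighter, and its non-overlap is a description.

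The Hoxc cluster held genes of the trunk and hind limb level. Hoxc6, which acts at the level of the forelimb and upper thorax, had 9.19, 9.29 and 9.42 on Rev-/- arrays, against 9.3, 9.48 and 9.52 on WT arrays. Rev-/- 3 lay inside the WT range and the other 2 Rev-/- arrays below it, for a difference of -0.14 (SE 0.087, unadjusted p = 0.159), or -0.085 without Rev-/- 1. Hoxc8, which acts at the level of the lower thorax, had 6.81, 6.8 and 6.83 on Rev-/- arrays, against 6.7, 6.78 and 6.78 on WT arrays. All 3 Rev-/- arrays were higher by 0.017 or more, and WT 1 was the only array at which Hoxc8 missed the limit. Hoxc9, which specifies thoracic motor neurons, had 9.92, 10.21 and 10.3 on Rev-/- arrays, against 10.05, 10.15 and 10.09 on WT arrays. As for Hoxa7, Rev-/- 1 was lowest and the other 2 Rev-/- arrays highest, and the difference of 0.05 was 0.16 without Rev-/- 1 and -0.033 without Rev-/- 3. It was -0.20 with array medians aligned.

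Hoxc10, a gene of the lumbar level and of the hind limb, had 8.79, 8.96 and 8.89 on Rev-/- arrays, against 9.12, 8.77 and 8.75 on WT arrays. WT 1 was the high array, the Rev-/- arrays lay between the WT ones, and the means were 8.88 ± 0.089 on Rev-/- arrays and 8.88 ± 0.21 on WT arrays (SD, n = 3 each). A second Hoxc10 probe was present on all 6 arrays, at 7.95, 8.24 and 8.1 on Rev-/- arrays against 8.21, 8.01 and 8.15 on WT arrays.

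In the Hoxd cluster, 3 genes had their 3 highest values on the same arrays of both labels. Hoxd4, which patterns the neck vertebrae, had 7.54, 7.23 and 7.15 on Rev-/- arrays, against 7.51, 7.19 and 7.62 on WT arrays. Hoxd8, a trunk gene, had 8.72, 8.19 and 8.24 on Rev-/- arrays, against 8.46, 8.17 and 8.51 on WT arrays. In both genes Rev-/- 1, WT 1 and WT 3 were high and the other 3 arrays low, and Hoxd8 had the widest range of all 21 genes, 0.55 on the log2 scale. Hoxd9, which patterns the upper limb segment, had 7.29, 7.07 and 7.03 on Rev-/- arrays, against 7.11, 6.93 and 7.29 on WT arrays. The second Hoxd9 probe, with 7.39, 6.96 and 6.89 on Rev-/- arrays against 7.12, 6.99 and 7.11 on WT arrays, had the same 3 highest arrays as the first.

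The next Hoxd genes did not share this order. Hoxd10, which acts in lumbar motor neurons and the hind limb, had 6.92, 6.75 and 6.8 on Rev-/- arrays, against 6.9, 6.92 and 6.87 on WT arrays. Rev-/- 2 and Rev-/- 3 were below all WT arrays and Rev-/- 1 was not, and without it the difference of -0.07 was -0.12, with no overlap. Hoxd11, which builds the forearm together with Hoxa11, had 6.74, 6.72 and 6.67 on Rev-/- arrays, against 6.73, 6.71 and 6.68 on WT arrays. All 6 values lay within 0.07 around the limit, the narrowest range of the 21 genes.

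In 16 of 21 genes the range over the 6 arrays was more than 2 times the difference between the label means. The range can never be smaller than that difference. The share over all genes was not computed, so the count is a description. The median SD within a label was 0.089 for Rev-/- arrays and 0.051 for WT arrays. Array Rev-/- 1 held the highest value of 4 and the lowest value of 6 of the 21 genes, where it held the highest value of 21.8% and the lowest of 25.1% of all genes tested. By cluster, its median deviation from the gene means was 0 for Hoxa, -0.074 for Hoxb, -0.134 for Hoxc and 0.167 for Hoxd. On the same array the osteoblast markers deviated most. Their median deviation was 2.8, -0.58 and -0.64 on Rev-/- arrays, against -0.62, -0.45 and -0.46 on WT arrays. That of the neutrophil markers was 2.7, -1.1 and -0.13 on Rev-/- arrays, against -1, 0.063 and -0.38 on WT arrays. The part of such cells in the Hox values was not tested.

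**Figure D4:**
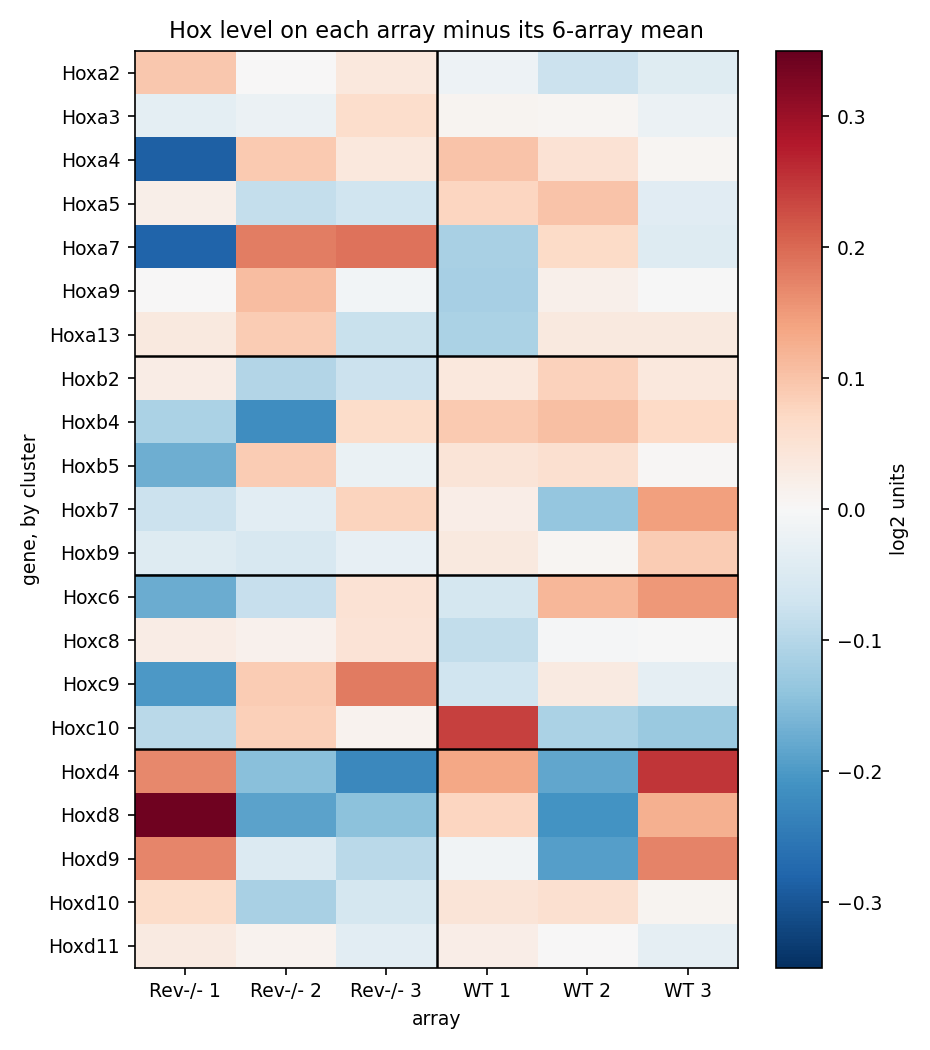
Log2 intensity of each present Hox gene on each array minus its mean over the 6 arrays, red above and blue below, by cluster, with Rev-/- arrays left of WT arrays. Hoxd4, Hoxd8 and Hoxd9 are red on Rev-/- 1 and WT 3 and blue on Rev-/- 2, Rev-/- 3 and WT 2, while Hoxa4, Hoxa7 and Hoxc9 are blue on Rev-/- 1.

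Hoxd4, Hoxd8 and Hoxd9 shared Rev-/- 1, WT 1 and WT 3 as their 3 highest arrays, an order noticed after the values were seen and shared by 5.24% of all genes tested. In the same way Hoxa7 and Hoxc9 shared Rev-/- 2, Rev-/- 3 and WT 2, with 5.11% of all genes. Without Rev-/- 1 the differences were -0.25 for Hoxd4, -0.16 for Hoxd8 and -0.06 for Hoxd9, in place of -0.14, 0.01 and 0.02. Without WT 3, another of their high arrays, they were -0.046 for Hoxd4, 0.07 for Hoxd8 and 0.11 for Hoxd9. Cartilage markers were also highest on Rev-/- 1, with WT 1 next by their median deviation, but that deviation was higher on Rev-/- 3 than on WT 3. Of 5 chondrocyte markers 3 were above the limit, and their median deviation was 1, -0.72 and 0.065 on Rev-/- arrays, against 0.095, -0.34 and -0.05 on WT arrays. Col2a1, the main cartilage collagen, had 12.39, 8.5 and 10.88 on Rev-/- arrays, against 11.27, 9.41 and 10.43 on WT arrays, and Matn3 passed the limit on none. Their part in the Hoxd values was not tested.

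Genes that read or set the Hox code showed no call either. Of 8 measured Hox partner genes of the Pbx, Meis and Pknox families, 7 were above the limit on all 6 arrays, and the median difference was -0.0027. Pknox2, such a partner, had the smallest p, with 7.45, 7.79 and 7.7 on Rev-/- arrays, against 8.13, 7.71 and 7.84 on WT arrays (unadjusted p = 0.0991). Meis1 had 8.51, 8.47 and 8.03 on Rev-/- arrays, against 8.27, 8.38 and 8.62 on WT arrays, with overlap.

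All 24 measured Polycomb and trithorax genes were above the limit, and their differences ran between -0.13 and 0.21. Bmi1, a subunit of the Polycomb complex PRC1, had 7, 7.09 and 6.99 on Rev-/- arrays, against 7.11, 7.11 and 7.11 on WT arrays. It was the only gene of this list without overlap, where 4.55% of all genes tested were so placed lower. Kmt2a, the trithorax methyltransferase that keeps Hox genes active, had 9.89, 9.63 and 9.55 on Rev-/- arrays, against 9.66, 9.47 and 9.6 on WT arrays.

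Of 28 measured genes of limb position, 16 were above the limit and none was called. Tbx4, a T-box factor of the hind limb, had 7.94, 7.85 and 7.78 on Rev-/- arrays, against 7.78, 7.75 and 7.78 on WT arrays, and passed the limit on all 6. Tbx5, its forelimb counterpart, passed only on WT 2, and Pitx1, the homeobox factor upstream of Tbx4 in the hind limb, also passed only on WT 2. The smallest p was that of Tbx3, with 7.77, 8.07 and 7.92 on Rev-/- arrays, against 8.07, 8.01 and 8.26 on WT arrays (unadjusted p = 0.0946).

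Of 16 measured retinoic acid genes, which carry the signal that opens Hox genes in the embryo, 12 were above the limit, with differences between -0.1 and 0.09. Rarg, a retinoic acid receptor, had 7, 6.89 and 6.92 on Rev-/- arrays, against 6.87, 6.79 and 6.87 on WT arrays, without overlap (limma unadjusted p = 0.188). Over all genes tested, 3.54% were so placed higher. Of the 6 Cdx and ParaHox genes, relatives of the Hox genes, Cdx4 alone was above the limit on at least 3 arrays.

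Of 12 measured genes that flank the clusters, 9 were above the limit. Hibadh, a valine catabolism enzyme near Hoxa, had 11.84 on each Rev-/- array, against 12, 12.08 and 11.93 on WT arrays. Its difference of -0.16 (SE 0.063) had an unadjusted p of 0.0357 and a limma adjusted p of 0.997. Hibadh was the only gene of these 6 lists at an unadjusted p of 0.05, which 1.94% of all genes reached lower. Mtx2, a mitochondrial outer membrane gene near Hoxd, had 6.84, 6.94 and 6.95 on Rev-/- arrays, against 7.01, 7.02 and 6.97 on WT arrays. Like Hibadh it was without overlap, where 4.55% of all genes were so placed lower.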

How the data were processed

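RNA of 6 primary myoblast samples was hybridised to Illumina Mouse WG-6 v2 arrays. The authors describe background subtraction, quantile normalization with lumi and limma, and the submitters' notes also list GenomeStudio (versions: not given in the sources used here). Values deposited by the authors were linear intensities, with array medians of 98.4 to 107, that did not share 1 distribution. A second table of 12 columns named by array position was not used. Intensities of all 45281 probes were quantile-normalized on the log2 scale with limma 3.58.1 in R 4.3.3. The 34885 probes with 1 gene symbol were kept where above the limit on at least 3 arrays (18158), fitted with lmFit and eBayes and adjusted by Benjamini-Hochberg over all of them. The limit was the density peak of the dim probes with the dimmer side mirrored. Every member is accounted for, and 1 item is not reported here. Values are given for those above the limit, and in other lists for a few of the up to 4 genes of smallest p, with Tbx4, Tbx5 and Pitx1. The members and lists were chosen with earlier results of these data known. Permutation tests were exact and 2-sided. Steps were tested on simulated data. The number of arrays limits precision, and p-values measure the spread between these samples. Alternatives changed normalization, limit, probe choice and fit, or left out an array.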

Additional observations from a re-analysis of the deposited data

How the results depend on the processing

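Under 19 alternatives, 83 of 93 recomputed values stayed within a tolerance of 1.5 times for counts and 1 SD between replicates for the median. None called a Hox gene or a gene of the 6 other lists. The count of Hox genes above the limit lay between 18 and 21, and between 19 and 21 when 1 array was left out. With the limit required on all 6 arrays the count without overlap was 3, since Hoxb9 and Hoxc8 then left, beside 8.02% of all genes. The count was 4 to 9 when 1 array was left out, the 9 without Rev-/- 1, beside 14.5% to 21.4% of all genes. The median log2 difference was -0.14 with array medians aligned and -0.18 with no normalization, when the median of all genes was -0.11 and -0.15. It was -0.01 with the limit on all 6 arrays, -0.014 with the mean of all probes, and -0.061 to 0.0028 when 1 array was left out. At an unadjusted p of 0.05, 3 Hox genes passed with array medians aligned and 4 with no normalization, and at most 1 elsewhere. The share of all genes at that p was not computed for the alternatives. The sign of the difference held for 9 of 21 genes and turned in 7 of 16 alternatives for Hoxc10. It held for Hoxb2 and Hoxb4 in 16 of 16, and for Hoxb9 in the 10 where it passed the filter. Not all of these could change a sign. Another limit, the replicate block and, for genes with 1 probe, the mean of all probes left the difference as it was. Aligned medians and no normalization moved the median of all genes below 0, which favours a sign below 0. A limit set on each array from the deposited intensities, chosen after seeing the data, gave 21 genes above it and 5 without overlap. The share without overlap over all genes was then 8.09%. With the replicate number as a block, 0 Hox genes were called. Same-numbered arrays correlated at -0.17, 0.12 and 0.05 in their deviations from the group means, and arrays of different number at -0.25 to 0.15. These values show no pairing by number. They cannot exclude it, since deviations from a mean of 3 arrays depend on each other.

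Signal over background limits these values. Of the 21 genes, Hoxb9, Hoxc8 and Hoxd11 lay at the limit, and an absent call gives only a bound. Deposited intensities include a background floor. Normexp with an offset of 16, which removes part of it, gave log2 differences of -0.36 for Hoxb4 and 0.21 for Hoxa2, with none called. Intervals were not computed on that scale.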
